A study of Mus musculus with 18 samples.

Results

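Cytochrome P450 genes outside the CYP1 subfamilies were followed in mouse hepatoma cells exposed to ligands of the aryl hydrocarbon receptor (AHR). They were taken as the probe sets to which the platform annotation gives 1 gene symbol of the form Cyp, family number, letter and member number, leaving out the Cyp1a and Cyp1b genes, the classic AHR targets, and the Cyp26 genes. The rule found 67 genes on 88 probe sets, of 18193 named genes on 45037 probe sets, and each gene was represented by its probe set with the highest mean signal over all arrays. Expression was read from 18 Affymetrix mouse arrays, 3 in each of 6 groups, after 8 hr of treatment. The c35 groups received 5 nM TCDD (2,3,7,8-tetrachlorodibenzo-p-dioxin, a potent and persistent AHR ligand), 5 µM BaP (benzo[a]pyrene, a polycyclic aromatic hydrocarbon that is both a ligand and a substrate of induced P450s) or the solvent DMSO alone, and the wild-type groups received TCDD, BaP or DMSO in the same way. The labels of the wild-type TCDD arrays give no dose, and the study's methods give the same one for both lines. Wild-type cells were Hepa-1c1c7, a mouse liver tumor line, and c35 cells are a mutant derivative of it whose AHR cannot bind DNA. DMSO-treated cells are called naive below. Because c35 is 1 mutant line, the AHR mutation and any other difference between the lines cannot be told apart.

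P450s are heme enzymes that insert an oxygen atom into a substrate, most of them in the endoplasmic reticulum with electrons from NADPH-cytochrome P450 reductase. Families CYP2 and CYP3 act mainly on drugs and other foreign compounds, family CYP4 and the Cyp2j genes on fatty acids, and the remaining families on cholesterol, bile acids, steroid hormones and vitamin D. In liver, foreign compounds switch on sets of these genes through nuclear receptors such as CAR, PXR and PPARα, whereas AHR, after binding a ligand, pairs with ARNT and binds DNA at the core GCGTG.

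The start regions of 3 of the 67 genes are shown because they belong to members whose values the results turn on and because they differ in that core. They are RefSeq windows of the GRCm38.p6 build, reaching from 250 bases before to 50 bases after the annotated start, printed 5′ to 3′ on the strand of the gene, with GCGTG or its reverse complement CACGC in capitals. Cyp2s1 (chr7:25816476-25816775, minus strand) held no copy of the core, Cyp20a1 (chr1:60343050-60343349, plus strand) held 2 copies, beginning 132 and 32 bases before the start, and Cyp4v3 (chr8:45333114-45333413, minus strand) held 1, beginning 16 bases before the start.
Cyp2s1: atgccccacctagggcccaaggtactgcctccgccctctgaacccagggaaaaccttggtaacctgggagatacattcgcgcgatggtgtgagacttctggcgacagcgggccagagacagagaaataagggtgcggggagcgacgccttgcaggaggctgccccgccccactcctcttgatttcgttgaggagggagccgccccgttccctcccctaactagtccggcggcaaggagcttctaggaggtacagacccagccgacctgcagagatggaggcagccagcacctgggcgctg
Cyp20a1: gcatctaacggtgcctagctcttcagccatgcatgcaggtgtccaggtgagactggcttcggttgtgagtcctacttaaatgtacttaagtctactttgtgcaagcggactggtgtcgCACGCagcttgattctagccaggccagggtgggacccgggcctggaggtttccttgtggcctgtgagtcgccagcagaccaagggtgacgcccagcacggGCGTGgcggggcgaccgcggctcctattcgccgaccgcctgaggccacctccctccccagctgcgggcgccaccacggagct
Cyp4v3: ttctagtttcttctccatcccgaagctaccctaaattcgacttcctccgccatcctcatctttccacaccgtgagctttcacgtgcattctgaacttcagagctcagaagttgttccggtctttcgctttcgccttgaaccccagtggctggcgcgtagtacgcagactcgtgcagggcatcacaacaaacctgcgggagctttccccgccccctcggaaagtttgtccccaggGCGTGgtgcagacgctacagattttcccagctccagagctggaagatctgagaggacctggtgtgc
Windows were on hand for 46 of the 67 members, and 11 of them (23.9%) held the core on either strand, against 9500 of 27025 genes (35.2%) with a window. A match of 5 letters is common by composition and describes the window only, and the absence of a match says nothing of sites farther away.

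Signals were log2 values, and a probe set's brightness depends on its own sequence, so signals are compared between groups and not between genes. The median probe set had a mean of 5.66. Of all 18193 named genes, each on its brightest probe set, 10939 lay above it, and so did 13 of the 67 P450 genes. By role the 13 were 4 of 33 genes that act on foreign compounds, 4 of 19 on fatty acids, 3 of 6 on sterols and bile acids, 1 of 5 on steroid hormones, 0 of 3 on vitamin D, and Cyp20a1, a P450 of unknown substrate. The 13 included Cyp2s1, an AHR-inducible P450 of epithelia outside the liver, Cyp27a1, the mitochondrial sterol hydroxylase, Cyp4f16 and Cyp4b1 of the fatty acid family, and Cyp21a1, the adrenal steroid hydroxylase. Some genes typical of adult hepatocytes lay under the median probe set. Cyp2e1, the ethanol-inducible P450, averaged 4.37, and Cyp7a1, the rate-limiting enzyme of bile acid synthesis, averaged 4.27. Cyp8b1, which sets the share of cholic acid, averaged 5.01, while Cyp27a1 averaged 8.65. Of the vitamin D genes, Cyp24a1, which degrades the hormone, averaged 5.05, and Cyp27b1, which makes it, averaged 4.24. The files hold no detection calls, so whether these low signals differ from background was not tested. Differences between low signals are compressed on this scale.

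**Figure D1:**
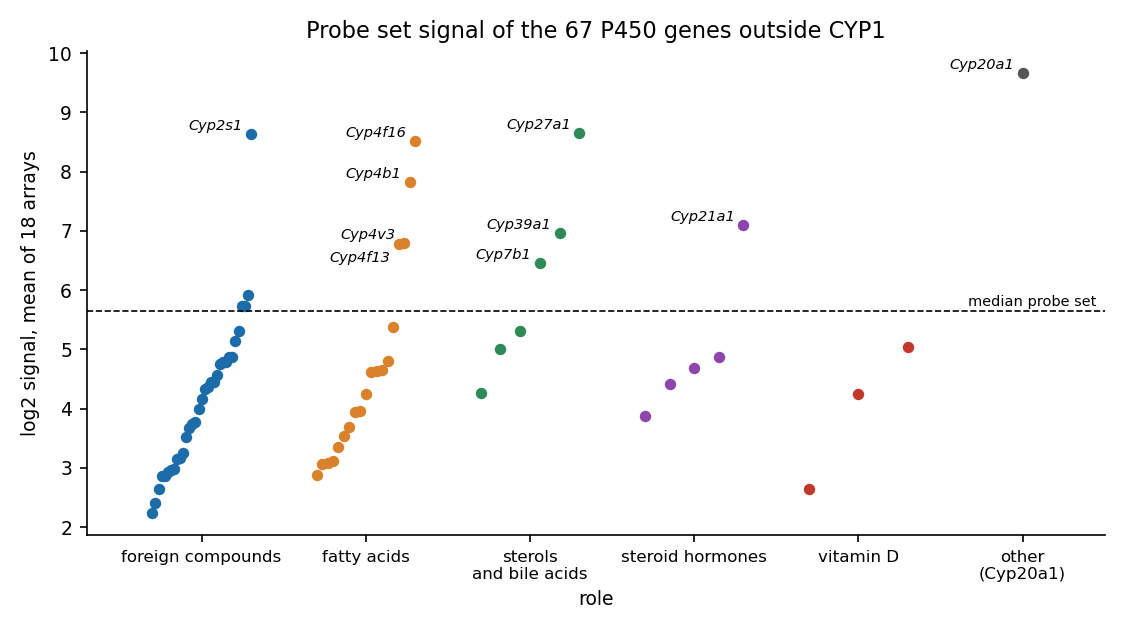
Each point is 1 of the 67 P450 genes, placed by role on the horizontal axis and by the mean log2 signal of its probe set over 18 arrays on the vertical axis. The dashed line is the median probe set (5.66), and 13 genes lie above it, among them Cyp20a1 at 9.67, while most genes that act on foreign compounds lie below it.

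The labelled tissue was checked with markers. Over all named genes, 10939 of 18193 lay above the median probe set, so counts of markers above it say little alone. Of 8 measured hepatocyte markers 6 lay above the median probe set, including Afp (11.9 in naive c35 and 12.1 in naive wild-type cells) and Alb (11.2 in naive c35 and 13.6 in naive wild-type cells). Alb was called lower in naive c35 cells, and 1 marker was called higher. That was Fgb, at 4.98 in naive c35 and 4.02 in naive wild-type cells, under the median probe set. Of 6 fibroblast genes 4 lay above it. Over all arrays Dcn averaged 13.8, Col3a1 12.4, Col1a1 10.4 and Col1a2 5.83, while Pdgfra averaged 4.59 and Lum 3.49. Between the naive lines, 2 of the 6 differed. Col3a1 averaged 13.0 in naive c35 and 11.8 in naive wild-type cells and was called higher, and Pdgfra averaged 3.72 in naive c35 and 5.31 in naive wild-type cells and was called lower. The mean over the fibroblast list ranged from 8.26 to 8.39 on naive c35 arrays and from 8.32 to 8.60 on naive wild-type arrays. Of 5 leukocyte genes 3 lay above the median probe set, although Ptprc averaged 2.96. The mean over the list ranged from 5.71 to 5.77 on naive c35 arrays and from 5.34 to 5.40 on naive wild-type arrays. Cd68 averaged 8.70 in naive c35 and 7.30 in naive wild-type cells and was the 1 leukocyte gene called, as higher. Of 4 endothelial genes 1 lay above the median probe set. Arrays of 1 line correlated at 0.991 or higher and arrays of different lines at 0.969 to 0.98, and no pair of arrays held identical values. The control probes for Actb gave a 3′ minus 5′ difference, a sign of RNA integrity and labeling, that averaged 0.34 to 0.39 in the c35 groups and 0.99 to 1.01 in the wild-type groups, so it moves with the line. The part of this difference and of the markers that move with the line in the P450 differences given below was not tested. Array weights estimated by limma ranged from 0.289 for wild-type DMSO replicate 1 and 0.442 for c35 BaP replicate 2 to 1.98.

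In wild-type cells, 1 of the 67 P450 genes changed with either ligand: Cyp2s1 rose with TCDD and rose further with BaP. This comparison asks which genes respond to AHR activation, and a gene was called at a Benjamini-Hochberg adjusted p below 0.05 (limma, adjusted over all probe sets) together with a change above 1.5-fold. The 3 wild-type arrays with TCDD had Cyp2s1 signals of 9.14, 9.13 and 9.33, the 3 with BaP had 10.13, 10.01 and 9.99, and the 3 with DMSO had 7.88, 7.99 and 7.98. The 3 groups did not overlap, and the BaP arrays were the highest of all 18. The means were 9.20 ± 0.12 with TCDD, 10.04 ± 0.08 with BaP and 7.95 ± 0.06 with DMSO (SD, n = 3 each). In RNA of whole cultures, a change in the share of cells that express a gene and a change in RNA per cell cannot be told apart.

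The TCDD change of Cyp2s1 was 1.25 on the log2 scale (95% interval 1.08 to 1.42), or 2.38-fold, with a limma adjusted p of 2.88e-08. The BaP change was 2.09 (1.92 to 2.26), or 4.27-fold, with a limma adjusted p of 2.81e-12. The signal was lower with TCDD than with BaP by a log2 difference of -0.84 (-1.01 to -0.67, limma adjusted p = 1.28e-05). Since the 2 ligands were given at different concentrations, this sets 2 exposures side by side and does not rank the ligands.

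In c35 cells the same gene gave 8.01, 8.26 and 8.30 with TCDD, 8.20, 8.19 and 8.23 with BaP and 8.29, 8.27 and 8.15 with DMSO. The groups overlapped. The change was -0.05 (-0.22 to 0.12) with TCDD and -0.03 (-0.19 to 0.14) with BaP, with limma adjusted p-values of 0.979 and 1. The difference between the lines in response was itself called: the c35 response minus the wild-type response was -1.30 (-1.54 to -1.06, limma adjusted p = 7.05e-06) for TCDD and -2.12 (-2.36 to -1.88, limma adjusted p = 1.56e-09) for BaP. Without a ligand, Cyp2s1 was slightly higher in c35 cells, at 8.23 ± 0.08 against 7.95 ± 0.06 in wild-type cells (SD, n = 3 each), a log2 difference of 0.29 that passed the test (limma adjusted p = 0.00858) but not the minimum change.

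**Figure D2:**
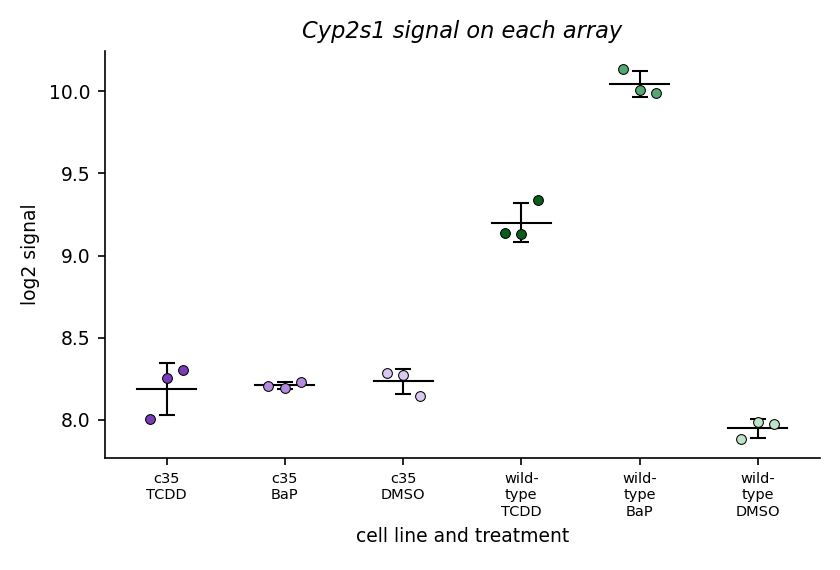
Log2 signal of Cyp2s1 on the vertical axis for each array (points) of the 6 groups, with the mean (long bar) and SD (short bars) of 3 arrays. The wild-type TCDD and BaP arrays stand above wild-type DMSO arrays, with means of 9.20, 10.04 and 7.95, while the c35 groups lie between 8.01 and 8.30 on every array.

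The background helps to read these counts. Of all 18193 genes, 0.341% were higher and 0.0385% lower with TCDD in wild-type cells, against 1 higher and 0 lower of 67 P450 genes (1.49% higher). With BaP 0.885% were higher and 0.434% lower, against 1 and 0 members. Between TCDD and BaP 0.137% were higher and 0.121% lower, against 0 and 1 members. For the response in c35 minus that in wild-type cells, 0.0055% of genes were higher and 0.275% lower for TCDD, and 0.33% higher and 1.01% lower for BaP, against 0 higher and 1 lower member each time. In c35 cells the cutoff was the wider adjusted p below 0.1, with no minimum change. At that cutoff limma called 0% of genes and 0 members for either ligand in either direction. For each ligand, 3 of the 67 members (4.48%) had an unadjusted p below 0.05. The matching background share was 5.16% for TCDD and 3.53% for BaP. A single gene of 67 carries each count of called members above 0, so these counts describe Cyp2s1 rather than P450 genes as a group. The TCDD and BaP comparisons share their DMSO arrays.

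The 66 other members gave small differences. With TCDD in wild-type cells their log2 changes ranged from -0.47 for Cyp3a25, a P450 of the drug-metabolizing CYP3A family, to 0.38 for Cyp4v3, and their median standard error was 0.12. The smallest limma adjusted p among them was 0.0743, and 8 of the 67 members (11.9%) had an unadjusted p below 0.05, against 14.3% of all genes. With BaP they ranged from -0.40 for Cyp3a25 to 0.50 for Cyp4v3, and 4 of the 67 members (5.97%) had an unadjusted p below 0.05, against 19.2% of all genes. The median log2 change over the 67 members was -0.00073 with TCDD and 0.03 with BaP, beside 0.0063 and 0.0012 over all genes. Cyp3a25 is named here because its value stood at the end of the range. Its mean signal over all arrays was 2.65, well under the median probe set.

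**Figure D3:**
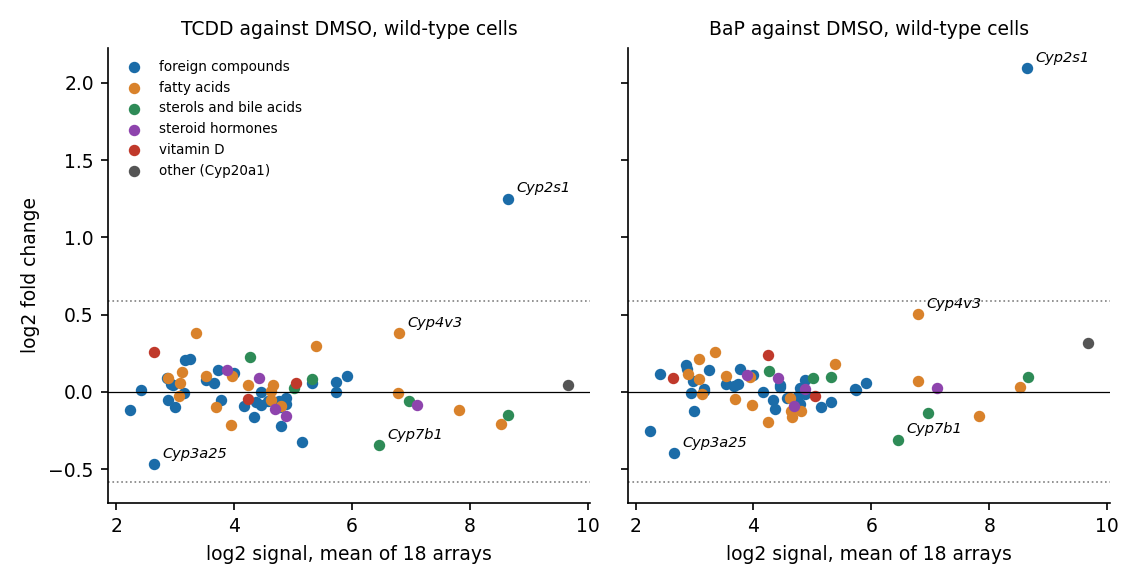
Log2 fold change in wild-type cells on the vertical axis, TCDD against DMSO at left and BaP against DMSO at right, against mean log2 signal on the horizontal axis, for the 67 P450 genes colored by role. Dotted lines mark 1.5-fold, and Cyp2s1, at 1.25 and 2.09, is the only gene beyond them.

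With BaP, 2 members passed the test but stayed under 1.5-fold, Cyp4v3 and Cyp20a1, whose start regions were chosen for printing with these values known. Cyp4v3, a fatty acid omega-hydroxylase whose human counterpart CYP4V2 is mutated in a crystalline retinal dystrophy, had 8.12, 7.89 and 7.95 with BaP and 7.40, 7.64 and 7.41 with DMSO in wild-type cells. The BaP arrays all lay above the DMSO arrays, and the change was 0.50 (0.30 to 0.71, limma adjusted p = 0.00303). Its TCDD arrays gave 7.98, 7.82 and 7.79, also above the DMSO arrays, with a change of 0.38 (0.18 to 0.58) and a limma adjusted p of 0.0775. Cyp20a1 had 10.25, 10.40 and 10.18 with BaP and 9.76, 10.16 and 9.97 with DMSO, a change of 0.31 (0.13 to 0.50, limma adjusted p = 0.0492), with the lowest BaP array just above the highest DMSO array. The difference of BaP response between c35 and wild-type cells was -0.48 (-0.77 to -0.20) for Cyp4v3 and -0.49 (-0.75 to -0.22) for Cyp20a1, with limma adjusted p-values of 0.0888 and 0.0629, so a line difference in these 2 responses was not called. The other probe sets of both genes did not pass for BaP in wild-type cells: the second Cyp4v3 probe set gave 0.37 (limma adjusted p = 0.334), and those of Cyp20a1 gave 0.08 and 0.24 (limma adjusted p = 0.906 and 0.499). The brightest Cyp4v3 probe set is also of a design that may detect related transcripts.

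Of the P450 genes outside CYP1 that the study names among AHR-bound promoters, 3 were measured by a probe set of their own. The study lists them as more bound with a ligand than in naive cells, Cyp3a16 with both ligands and Cyp2c55 and Cyp2f2 with TCDD. Its chromatin was taken at an earlier time than the RNA, so binding and expression are unlike measures here. Cyp3a16 and Cyp2c55 act on drugs and steroids and Cyp2f2 activates naphthalene in the lung. With TCDD in wild-type cells their changes were -0.12 (-0.39 to 0.16) for Cyp3a16, -0.09 (-0.33 to 0.16) for Cyp2c55 and -0.05 (-0.27 to 0.16) for Cyp2f2, and with BaP -0.26 (-0.53 to 0.02), 0.03 (-0.22 to 0.28) and 0.15 (-0.07 to 0.37) in the same order. None of the 3 was called in any comparison between treatments or lines. Their mean signals were 2.24, 4.45 and 2.87, all under the median probe set.

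Cyp2s1 lies on chromosome 7 with 9 other members of the set, among them the Cyp2b genes, which CAR controls in liver. Their log2 changes in wild-type cells ranged from -0.07 to 0.25 with TCDD and from -0.11 to 0.15 with BaP, and 0 of the 9 were called. Among these neighbors Cyp2b10, the usual reporter of CAR activity, is 1 of the 4 foreign compound genes above the median probe set, with a mean signal of 5.91. That is its brightest probe set, and its others averaged 3.02 and 2.82.

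Between the naive lines, 8 of the 67 P450 genes differed, 7 lower and 1 higher in c35 cells. The comparison asks what differs in the absence of an added ligand. Of all genes, 7.52% were lower and 6.52% higher in naive c35 than in naive wild-type cells, against 10.4% and 1.49% of members. Over all signal levels, the share that was lower was thus close to the background and the share that was higher was below it. Of the 13 members above the median probe set, 6 were lower and 1 higher, against 10.7% and 10% of genes above it. Of the 54 members below it, 1 was lower and 0 higher. Above it lay 4 of the 33 foreign compound genes. By role, 3 of 6 sterol and bile acid genes were lower, 3 of 19 fatty acid genes were lower and 1 higher, and 0 of 33 foreign compound genes, 0 of 5 steroid hormone genes and 0 of 3 vitamin D genes were called. The median log2 difference was -0.52 over the sterol and bile acid genes and -0.0028 over all 67 members, beside 0.03 over all genes.

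Cyp7b1, which hydroxylates oxysterols and other steroids in the acidic branch of bile acid synthesis, had 3.89, 3.35 and 2.98 on the naive c35 arrays and 9.36, 9.43 and 9.31 on the naive wild-type arrays. The groups were far apart, and the c35 signals lay well under the median probe set. The difference was -5.96 (-6.38 to -5.54), or 62.2-fold, with a limma adjusted p of 7.42e-15. Its second probe set gave -6.87 (limma adjusted p = 1.78e-18), and a further one, with a mean signal of 2.74 over all arrays, gave -0.34 and was not called. The brightest Cyp7b1 probe set is of a design that may detect related transcripts, which its second is not. Since the c35 value sits at the low end of the scale, the fold is a ratio to that low signal and not to a measured transcript level.

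Cyp39a1, which hydroxylates an oxysterol made in brain, had 6.22, 6.40 and 6.38 in naive c35 cells and 7.75, 7.62 and 7.74 in naive wild-type cells. The groups did not overlap, and the difference was -1.37 (-1.53 to -1.21, limma adjusted p = 2.14e-11). Cyp27a1, which starts the acidic branch by oxidizing the cholesterol side chain, had 8.25, 8.14 and 8.21 in naive c35 cells and 9.26, 8.90 and 9.09 in naive wild-type cells. Again every c35 array was below every wild-type array, and the difference was -0.88 (-1.05 to -0.72, limma adjusted p = 1.5e-08). The second Cyp27a1 probe set, at a mean signal of 2.28, gave -0.13 and was not called. The other 3 sterol genes, Cyp7a1, Cyp8b1 and the brain cholesterol hydroxylase Cyp46a1, were not called.

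Of the fatty acid genes, Cyp4v3 had 5.78, 5.77 and 5.77 in naive c35 cells and 7.40, 7.64 and 7.41 in naive wild-type cells. The difference was -1.71 (-1.91 to -1.50, limma adjusted p = 2.26e-11), and a second probe set gave -1.27 (limma adjusted p = 1.38e-05). Both probe sets placed c35 cells lower. Cyp4f13, of the family that inactivates leukotrienes and other eicosanoids, had 6.39 on all 3 naive c35 arrays and 7.41, 7.16 and 6.90 on the naive wild-type arrays, a difference of -0.77 (-1.06 to -0.47, limma adjusted p = 0.000165). Cyp2j6, of the arachidonic acid epoxygenases, had 3.30, 3.71 and 3.72 in naive c35 cells and 4.28, 4.22 and 4.68 in naive wild-type cells, a difference of -0.82 (-1.15 to -0.48, limma adjusted p = 0.000335). It is the called member under the median probe set, and its second probe set gave -0.05.

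Cyp4b1, which oxidizes fatty acids and activates plant and fungal protoxins in lung, was the member that was higher. It had 8.07, 8.19 and 8.49 in naive c35 cells and 7.44, 7.59 and 7.46 in naive wild-type cells, without overlap. The difference was 0.76 (0.52 to 0.997, limma adjusted p = 1.58e-05). Cyp20a1 had 9.32, 9.32 and 9.29 in naive c35 cells and 9.76, 10.16 and 9.97 in naive wild-type cells, a difference of -0.65 (-0.84 to -0.46, limma adjusted p = 6.89e-06). Without wild-type DMSO replicate 2 the difference was -0.55 and under the minimum change. Its probe sets disagreed: the second gave 0.62 and was called higher (limma adjusted p = 0.0246) and another gave -0.62 and was called lower (limma adjusted p = 0.00374). The direction for Cyp20a1 therefore holds for 2 of its 3 probe sets, the brightest among them.

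**Figure D4:**
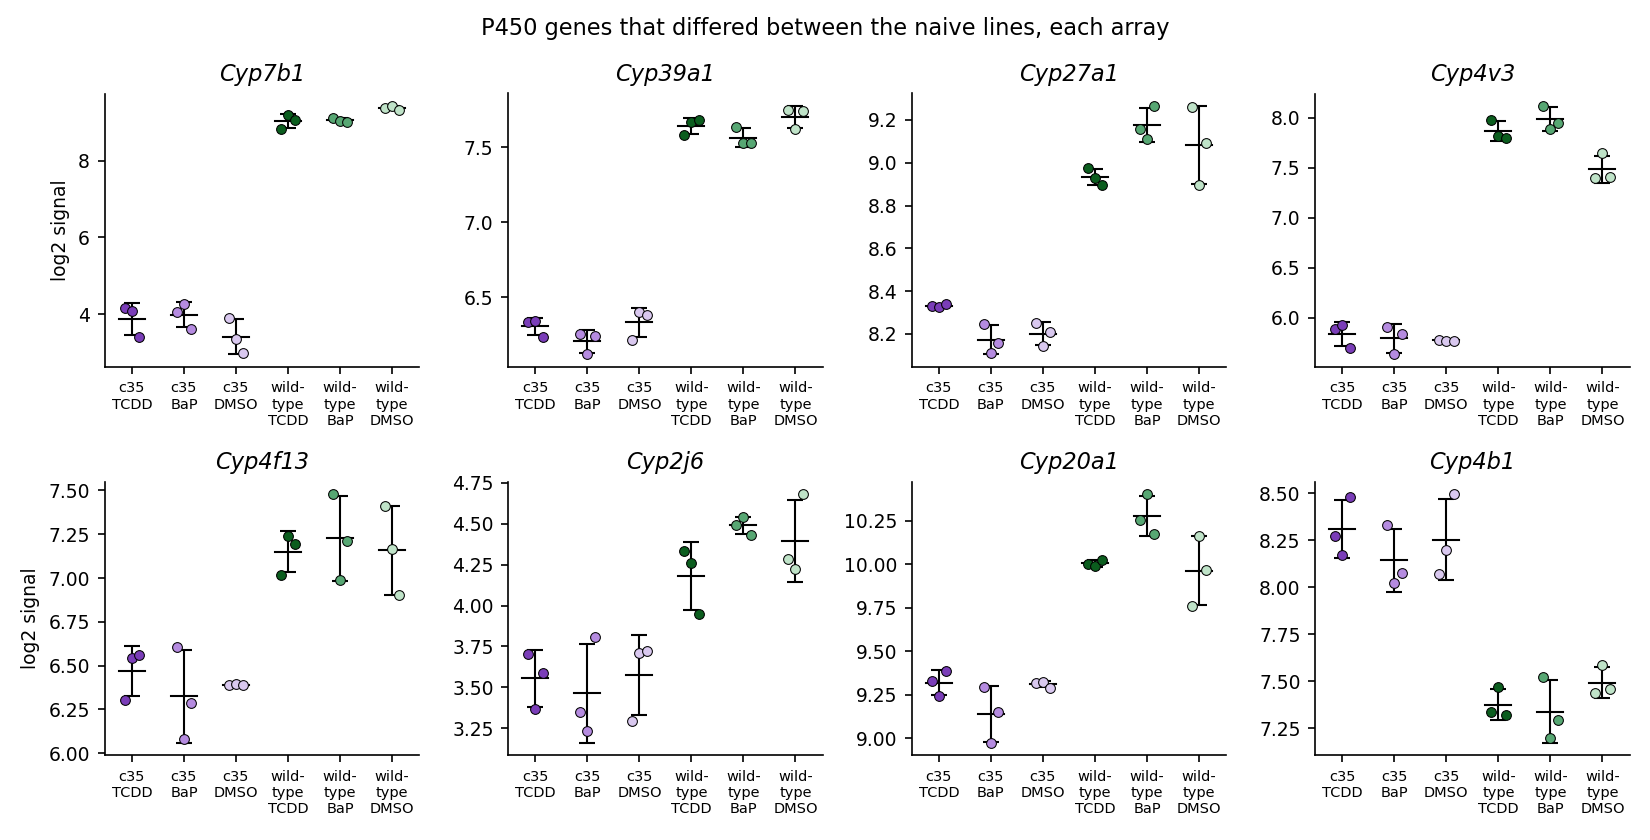
Log2 signal of the 8 P450 genes called between the naive lines, on each array (points) of the 6 groups, with mean and SD of 3 arrays. Each panel has its own vertical scale, and the c35 groups lie below the wild-type groups in 7 panels and above them for Cyp4b1.

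Between the naive lines, 23.9% of the 67 members had an unadjusted p below 0.05, against 44.8% of all genes. Beyond the called members, 4 more passed the adjusted p but not the minimum change. Cyp2s1 at 0.29 and Cyp2c23, an arachidonic acid epoxygenase, at 0.34 were higher in c35 cells, with limma adjusted p-values of 0.00858 and 0.0226. Cyp4a31, of the PPARα-controlled Cyp4a genes, at -0.52 and Cyp4f16 at -0.28 were lower, with limma adjusted p-values of 0.0011 and 0.00123. The second probe set of Cyp4a31 gave 0.22 and that of Cyp4f16 gave -0.10, and neither passed. On the arrays with a ligand, the Cyp4a31 difference was -0.03 with TCDD and 0.01 with BaP, and that of Cyp4f16 was -0.06 and -0.33. Cyp2c23 and Cyp4a31 are named because they passed, after their values were seen. The difference of Cyp4a31 reached -0.60 and was called without c35 DMSO replicate 1 or wild-type DMSO replicate 1. On chromosome 17, which holds Cyp39a1 and 7 other members, the Cyp4f genes and Cyp21a1, 1 of the 7 was called, Cyp4f13, and the differences of the 7 ranged from -0.77 to 0.18.

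The line difference was then measured on the arrays with a ligand, which share no array with the naive comparison; this was added after the data were seen. With TCDD, 8.65% of all genes were lower and 6.32% higher in c35 than in wild-type cells, against 8 and 1 members. With BaP, 8.98% of genes were lower and 6.83% higher, against 8 and 1 members. All 8 members called between the naive lines were called in the same direction in both, and the ninth was Cyp2s1. The Cyp7b1 difference was -5.15 with TCDD and -5.07 with BaP, against -5.96 without a ligand, and the c35 signals with a ligand averaged 3.88 with TCDD and 3.98 with BaP. Cyp4v3 gave -2.03 and -2.19, Cyp39a1 gave -1.34 and -1.36, Cyp27a1 gave -0.60 and -1.01, and Cyp4b1 gave 0.93 and 0.80, with TCDD named before BaP. Cyp2s1 gave -1.01 with TCDD and -1.83 with BaP, against 0.29 without a ligand. Among the members called with a ligand, it is the member whose line difference changed sign. Some members that were not called also changed sign, such as Cyp2j5, at 0.37 without a ligand, -0.07 with TCDD and -0.08 with BaP.

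**Figure D5:**
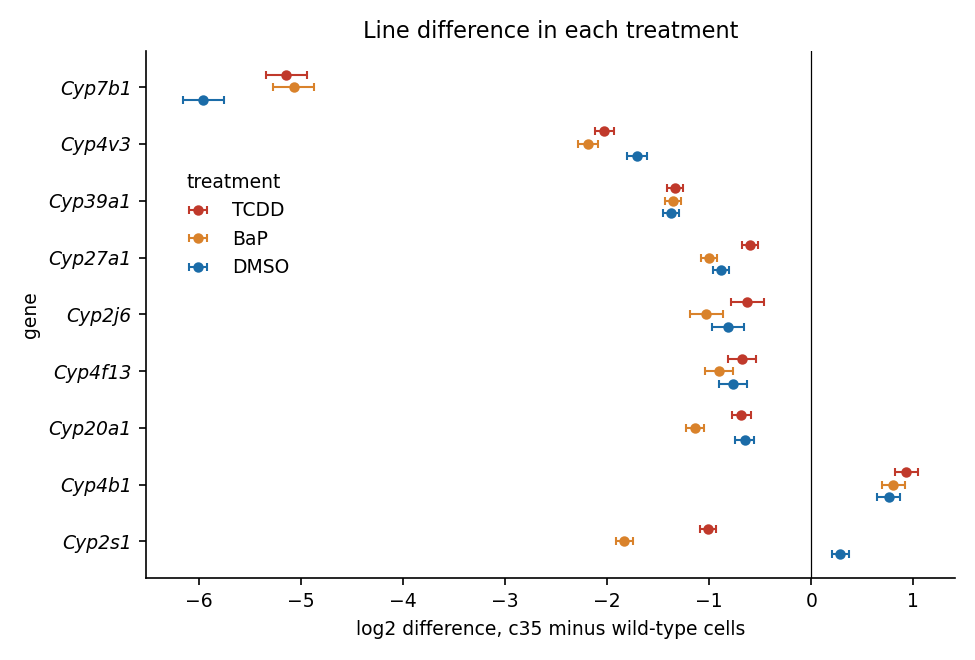
Log2 difference, c35 minus wild-type cells, on the horizontal axis for 9 P450 genes in cells given TCDD, BaP or DMSO, with bars of 1 standard error from limma. For 8 genes the 3 points lie on the same side of 0, and for Cyp2s1 the DMSO point (0.29) lies right of 0 and the TCDD (-1.01) and BaP (-1.83) points left of it.

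On its brightest probe set, Cyp7b1 also showed the widest difference in ligand response among members that were not called. Its change in c35 cells was 0.47 (0.05 to 0.89) with TCDD and 0.57 (0.15 to 0.99) with BaP, with limma adjusted p-values of 0.962 and 1, while in wild-type cells it was -0.34 (-0.76 to 0.08) and -0.31 (-0.73 to 0.11). The c35 response minus the wild-type response was 0.81 for TCDD and 0.88 for BaP (limma adjusted p = 0.491 and 0.152). Without c35 DMSO replicate 1 the BaP value was 1.12 and passed (limma adjusted p = 0.0451). All of the c35 values lie at the low end of the scale, where the 3 naive arrays alone spread over 2.98 to 3.89. The second Cyp7b1 probe set went the other way in c35 cells, at -0.18 with TCDD and -0.28 with BaP. There the c35 response minus the wild-type response was 0.105 for TCDD and 0.015 for BaP (limma adjusted p = 0.949 and 0.989). A further probe set gave 0.19 and 0.38 and was not called.

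The partners of P450s were read from lists of known genes. Of 7 listed electron donors and associated proteins 5 were measured, and 0 were called with a ligand in wild-type cells. Between the naive lines, Cyb5r3, the reductase of cytochrome b5, was higher in c35 cells at 11.63 against 10.62 in wild-type cells (log2 difference 1.01, limma adjusted p = 8.79e-10), and Pgrmc1, a heme-binding membrane protein that associates with P450s, was lower at 11.17 against 11.81 (-0.63, limma adjusted p = 4.68e-06). Of 8 heme synthesis genes 7 were measured. Cpox, a mitochondrial enzyme late in the pathway, averaged 9.71 with TCDD and 10.18 with BaP against 8.996 with DMSO in wild-type cells, a rise of 0.71 (limma adjusted p = 0.0177) and 1.18 (limma adjusted p = 2.47e-05), while in c35 cells it averaged 9.46 with TCDD, 9.51 with BaP and 9.60 with DMSO. Its BaP response differed between the lines by -1.28 (limma adjusted p = 0.00133). Alad, an early enzyme of the pathway, fell by 0.75 with BaP in wild-type cells (limma adjusted p = 2.02e-05). In naive cells Cpox (0.61) and Fech, which inserts the iron (0.73), were higher in c35 cells, with limma adjusted p-values of 0.00179 and 4.09e-09.

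Of 15 transcription factors that control P450 genes 14 were measured. Cebpb, a liver-enriched factor, rose by 0.65 with BaP in wild-type cells (limma adjusted p = 9.97e-06), and its BaP response differed between the lines by -0.73 (limma adjusted p = 0.000368). With TCDD 0 of the 14 were called. Between the naive lines 3 were higher and 0 lower in c35 cells: the bile acid receptor Nr1h4 (FXR) by 1.27, the oxysterol receptor Nr1h3 (LXRα) by 0.71 and the vitamin D receptor Vdr by 0.73, with limma adjusted p-values of 2.35e-08, 6.56e-07 and 0.0011. The P450 genes outside the set gave a measure of scale: of 8 measured, Cyp1a1 and Cyp1b1 rose with both ligands in wild-type cells, Cyp1a1 by 3.28 with TCDD and 3.69 with BaP (limma adjusted p = 0.0217 and 0.00186). Between the naive lines Cyp51, of cholesterol synthesis, and Ptgis, the prostacyclin synthase, were higher in c35 cells by 0.80 and 2.41, and Cyp1a1 and Cyp1b1 were lower, with differences of -2.56 and -0.86.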

How the data were processed

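Total RNA of 18 samples was hybridized to Affymetrix mouse arrays. The log2 values the authors deposited came from RMA (robust multiarray averaging) per the submitters' processing notes, with the version not given in the sources used here. They were used as deposited, without 64 control probe sets of 45101. The platform annotation gave 1 symbol to 34945 probe sets, several to 932 and none to 9160, and 4 P450 probe sets with several symbols were left out (Cyp3a41a with Cyp3a41b, Cyp2a5 with Cyp2a4, Cyp4a31 with Cyp4a10, Cyp4f37 with Cyp4f16).

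The model, after the study's methods, held a mean per group over all arrays and used an intensity trend in eBayes. R 4.3.3 was used with the package limma 3.58.1. Benjamini-Hochberg adjustment ran over 45037 probe sets. Calls needed an adjusted p below 0.05 and over 1.5-fold, or, for ligands in c35 cells, an adjusted p below 0.1. The fit was tested on simulated data. Replicates are biological per the study's methods, and their number, 3 a group, limits precision. Replicate numbers did not pair arrays. The windows were searched with Python 3.11.15 and pandas 2.3.3, and plots used matplotlib 3.10.9.

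Named were Cyp2s1, Cyp7b1, P450 genes the study names, all called members, the brightest members of the set and of each role, and the called genes of each list. The members and lists were chosen with earlier results of these data known. Alternatives were another prior, array weights, quantile normalization, median centring, a filter on dim probe sets, the mean over a gene's probe sets, a replicate block, no minimum change, only the arrays compared, and each array left out.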

Additional observations from a re-analysis of the deposited data

Results flagged for a closer look

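The response of Cyp2s1 differed between the lines by a test of the difference itself. For TCDD the c35 response minus the wild-type response was -1.30 on the log2 scale (limma adjusted p = 7.05e-06), and for BaP it was -2.12 (limma adjusted p = 1.56e-09). All 3 wild-type arrays with each ligand lay above the 3 wild-type DMSO arrays, while the c35 groups overlapped.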

How the results depend on the processing

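Cyp2s1 was called under every alternative run, with changes of 1.18 to 1.29 for TCDD and 2.05 to 2.12 for BaP in wild-type cells. No result reversed. With no minimum change, 3 members were called for BaP in wild-type cells (Cyp4v3 and Cyp20a1 beside Cyp2s1) in place of 1, and 12 between the naive lines in place of 8. When a gene's probe sets were averaged, 5 members were called between the naive lines. Cyp20a1 (-0.22), Cyp27a1 (-0.51) and Cyp2j6 (-0.43) were no longer called, since their probe sets are averaged with dimmer or opposite ones. Cyp27a1 still passed the test (limma adjusted p = 2.65e-06) but was under the minimum change, while Cyp20a1 did not pass (limma adjusted p = 0.239). With each array left out in turn, the number called between the naive lines ranged from 7 to 9. Cyp20a1 was lost without wild-type DMSO replicate 2 (-0.55). Cyp4a31 was added without wild-type DMSO replicate 1 (-0.60) or c35 DMSO replicate 1 (-0.60), as it was with array weights (-0.59). For the BaP response in c35 minus wild-type cells, array weights gave 2 calls in place of 1 (Cyp4a31, 0.68). Leaving out arrays gave 1 to 2. Without c35 DMSO replicate 1, Cyp7b1 was called on its brightest probe set (1.12, limma adjusted p = 0.0451). The cause was not tested. In c35 cells 0 members were called for a ligand under any alternative run. In the main run 3 members (4.48%) had an unadjusted p below 0.05 for each ligand. The background share there was 5.16% for TCDD and 3.53% for BaP. Cyp2j6 could not be tested under the filter on dim probe sets.

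The replicate numbers did not pair arrays: same-numbered arrays of 2 groups had deviations that correlated at -0.255 to 0.205, and 0 to 2 of 3 correlated best with their own number. The replicate block gave 1 called member for each ligand and for their difference in wild-type cells, 8 between the naive lines, 1 for each difference in response and 0 for each ligand in c35 cells, as without it. Low signals limit the rest, since 54 of 67 members lay under the median probe set.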
